A study of Mus musculus with 2 samples.

Results

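Newly formed oligodendrocytes are the cells that have just left the precursor pool and have not yet made compact myelin. They were taken as barcodes with at least 500 detected genes and at most 15% mitochondrial UMIs (unique molecular identifiers, each standing for 1 captured RNA molecule) that met 3 RNA criteria. Per 10000 UMIs of the barcode, these were at least 5 of Enpp6 plus Tcf7l2, at least 5 of Bcas1 and under 40 of the myelin genes Mobp, Mog and Mal together. The rule found 290 cells among the 4418 barcodes that passed the cell filter, out of 4841 in all, with 193 in the ipsilateral and 97 in the contralateral library. The 6 genes of the rule are therefore described only.

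Both libraries came from male C57/BL6 mice. On postnatal day 10 they underwent 60 minutes of middle cerebral artery occlusion, a model of neonatal stroke, and reperfusion then lasted 2 weeks. The ipsilateral library held lateral striatum of the occluded side and the contralateral library that of the opposite side, each from 3 pooled animals. Fluorescence sorting kept cells positive for O4 and/or A2B5, surface antigens of the oligodendrocyte lineage, so the shares of cell types below depend on that sort. With 1 library a side, no test was made, cells are not replicates, and all intervals are 95% intervals that cover counting error only.

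Oligodendrocyte precursors divide, carry the receptor Pdgfra and can stop dividing to differentiate. On the way they pass a committed stage high in the receptor Gpr17, and then a short-lived newly formed stage in which Enpp6, Tcf7l2 and Bcas1 are made while processes grow toward axons. Cells that go on become mature oligodendrocytes that hold myelin, and many newly formed cells are known to die before they do so.

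The newly formed cells were set against precursors (at least 2 Pdgfra and 3 of a further lineage marker per 10000 UMIs, under 10 Gpr17), committed precursors (at least 10 Gpr17) and mature oligodendrocytes (at least 40 of Mobp, Mog and Mal). Cells already taken as newly formed were not counted in these classes, even where they met the Gpr17 criterion. These classes held 309 and 247 precursors, 117 and 75 committed precursors and 1067 and 598 mature cells in the ipsilateral and the contralateral library. Newly formed cells had a median of 22512 ipsilateral and 20599 contralateral UMIs, precursors 12734 and 10148, and mature cells 29117 and 28163. The libraries shared 0 barcodes. The doublet caller Scrublet marked 0 of 193 ipsilateral and 1 of 97 contralateral newly formed cells. It called only 0.396% of all ipsilateral and 0.678% of all contralateral barcodes, against an expected rate of 0.05. Cells it did not call can therefore still be doublets.

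The myelin criterion fell in a gap between 2 sets of cells. Among the 278 ipsilateral and 124 contralateral barcodes that met the Enpp6 plus Tcf7l2 and the Bcas1 criteria, 193 and 97 lay below 40 and 85 and 27 at or above it. The highest value below was 26.7 in the ipsilateral and 16.8 in the contralateral library, and the lowest value above was 48.8 and 52.2. Most newly formed cells were far lower, with 157 of 193 ipsilateral and 77 of 97 contralateral cells below 5. Enpp6 plus Tcf7l2 had no such gap: the nearest barcodes inside were at 5.31 and 5.11 and the nearest outside at 4.97 and 4.90. For Bcas1 the nearest inside were at 7.09 and 5.22, and the nearest outside at 0 in both libraries.

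**Figure D1:**
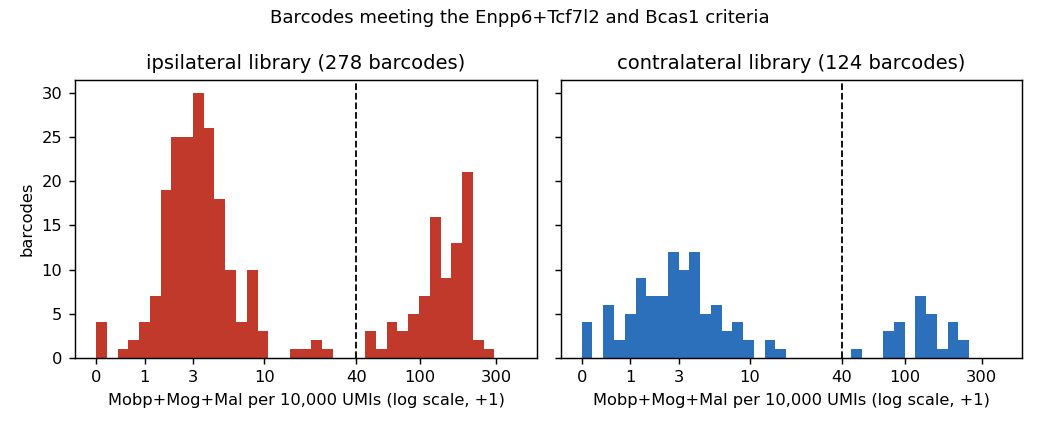
Histogram of Mobp plus Mog plus Mal per 10000 UMIs (log scale after adding 1) in the barcodes that met the other criteria, ipsilateral library on the left and contralateral on the right, with the threshold of 40 as a dashed line. No barcode lies between 26.7 and 48.8 in the ipsilateral or between 16.8 and 52.2 in the contralateral library.

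Frmd4a and Tmem108, markers that the rule did not use, were both high in the cells it selected. Frmd4a, which encodes a scaffold protein with a FERM domain, had 1086 CPM (its UMIs scaled to a common total per class) in ipsilateral and 986 CPM in contralateral newly formed cells. It had 20.2 ipsilateral and 17.3 contralateral CPM in precursors and 45.8 and 61.8 CPM in mature cells. Tmem108, a transmembrane protein gene, had 893 and 937 CPM in newly formed cells, 106 and 102 CPM in precursors and 47.9 and 55.4 CPM in mature cells. Of the 4 lineage stages, both markers were thus highest in the newly formed cells of both libraries. Of the rule's own genes, Enpp6, a choline-phosphate phosphodiesterase gene, had 1533 and 1546 CPM in newly formed cells, against 13.9 and 6.27 CPM in precursors and 317 and 306 CPM in mature cells. Bcas1 had 2971 CPM in ipsilateral and 2309 CPM in contralateral newly formed cells, and Tcf7l2, a transcription factor of the Wnt pathway, 772 and 646 CPM.

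Markers of cells other than oligodendrocytes summed to 127 CPM or less per list, but not every list was below its level in mature cells. Summed over 10 microglia markers, newly formed cells held 13.8 ipsilateral and 18.0 contralateral CPM, with 6 of 10 genes at 0 in each library. Summed levels of 8 astrocyte markers were 111 and 92.3 CPM (0 and 1 genes at 0), of 6 endothelial markers 75.5 and 54.9 CPM (no gene at 0), and of 5 mural markers 1.64 and 2.84 CPM (2 and 3 at 0). Neuroblast markers, 10 genes with none at 0, were at 127 ipsilateral and 67.2 contralateral CPM, and 21.1% of the ipsilateral UMIs were in 1 barcode. The 6 neuron markers, none at 0, summed to 126 and 91.9 CPM. Neuron markers were at 37.7 ipsilateral and 47.4 contralateral CPM in mature cells and at 645 and 776 CPM in precursors. Endothelial markers were at 35.4 and 36.1 CPM in mature cells and at 71.6 and 108 CPM in precursors. Why both lists were higher in newly formed than in mature cells was not tested.

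For each gene 5 CPM were added to either level before the log2 ratio, and a gene was called higher or lower when the ratio reached 1 or -1 in both libraries. Of 7803 genes measured against precursors, 452 (5.79%) were higher and 981 (12.6%) lower in newly formed cells. Of 6975 measured against mature cells, 1215 (17.4%) were higher and 674 (9.66%) lower. The split depends on scaling: on the log2 scale the median gene lay 0.31 above mature cells in the ipsilateral and 0.32 in the contralateral library. With size factors set by the median gene, the counts were 580 higher and 1112 lower than in mature cells, and 563 higher and 787 lower than in precursors. Higher than both classes in both libraries were 231 of 6635 genes (3.48%), and lower than both were 107 (1.61%). These ratios describe cells that the rule picked, so list counts are read as descriptions beside those shares.

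Of the newly formed stage list, 14 of 16 measured genes outside the rule were higher than in precursors and 14 of 15 higher than in mature cells. Itpr2, the calcium release channel of the endoplasmic reticulum, had 718 and 751 CPM in ipsilateral and contralateral newly formed cells, 154 and 183 CPM in precursors and 41.8 and 47.3 CPM in mature cells. Fyn, a Src-family kinase that acts in process outgrowth, had 3407 and 3315 CPM in newly formed cells, against 262 and 254 CPM in precursors and 176 and 216 CPM in mature cells. Slc12a2, a sodium, potassium and chloride cotransporter gene, was the exception, with 169 and 145 CPM in newly formed cells and 561 and 592 CPM in mature cells. Casr, a calcium-sensing receptor gene on the list, had 1 ipsilateral and 0 contralateral UMIs.

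Outside the rule's genes, Bmp4 stood furthest above both precursors and mature cells when ranked by the smallest of the 4 log2 ratios. Committed precursors did not enter this ranking, so its genes need not be higher than in that class. This secreted ligand of the BMP family had 1223 ipsilateral and 1273 contralateral CPM in newly formed cells, 43.7 and 39.1 CPM in precursors and 43.7 and 59.1 CPM in mature cells. Committed precursors lay between, with 431 and 317 CPM. Epcam, an epithelial cell adhesion molecule, had 183 and 180 CPM in newly formed cells, 0.897 and 0.369 CPM in precursors and 5.51 and 6.36 CPM in mature cells. With each cell thinned to 11754 UMIs it was found in 65.9% of ipsilateral and 62.2% of contralateral newly formed cells (75.1% and 68.0% without thinning) and in 0 of 154 and 0 of 164 neuroblasts. The Riken-named gene 9630013A20Rik followed with 659 and 578 CPM in newly formed cells, 11.2 and 9.23 CPM in precursors and 25.5 and 32.6 CPM in mature cells.

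The other genes of that top 20 included signalling, cytoskeletal and matrix genes. Pdcd4, an inhibitor of translation, had 1552 and 1504 CPM in newly formed cells and between 91.5 and 104 CPM in precursors and mature cells of either library. Dynll2, a dynein light chain, had 1688 ipsilateral and 2063 contralateral CPM in newly formed cells and 186 to 230 CPM in those classes. Rassf10 had 169 and 142 CPM in newly formed cells and at most 6.74 CPM in precursors or mature cells. Kif19a, a kinesin, Pak4, a serine and threonine kinase, Gng4, a G protein gamma subunit, Ust, a sulfotransferase, Itgb7, an integrin subunit, Bgn, the matrix proteoglycan biglycan, Epb41l2, a membrane skeleton protein, and the transcription factor gene Mycl were also among them, with Lrrc42 and 9530059O14Rik. Gp1bb was too, at 69.7 and 92.8 CPM, but 91.5% of its 31-base words are also in Sept5 transcripts, so its reads cannot be assigned with certainty.

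**Figure D2:**
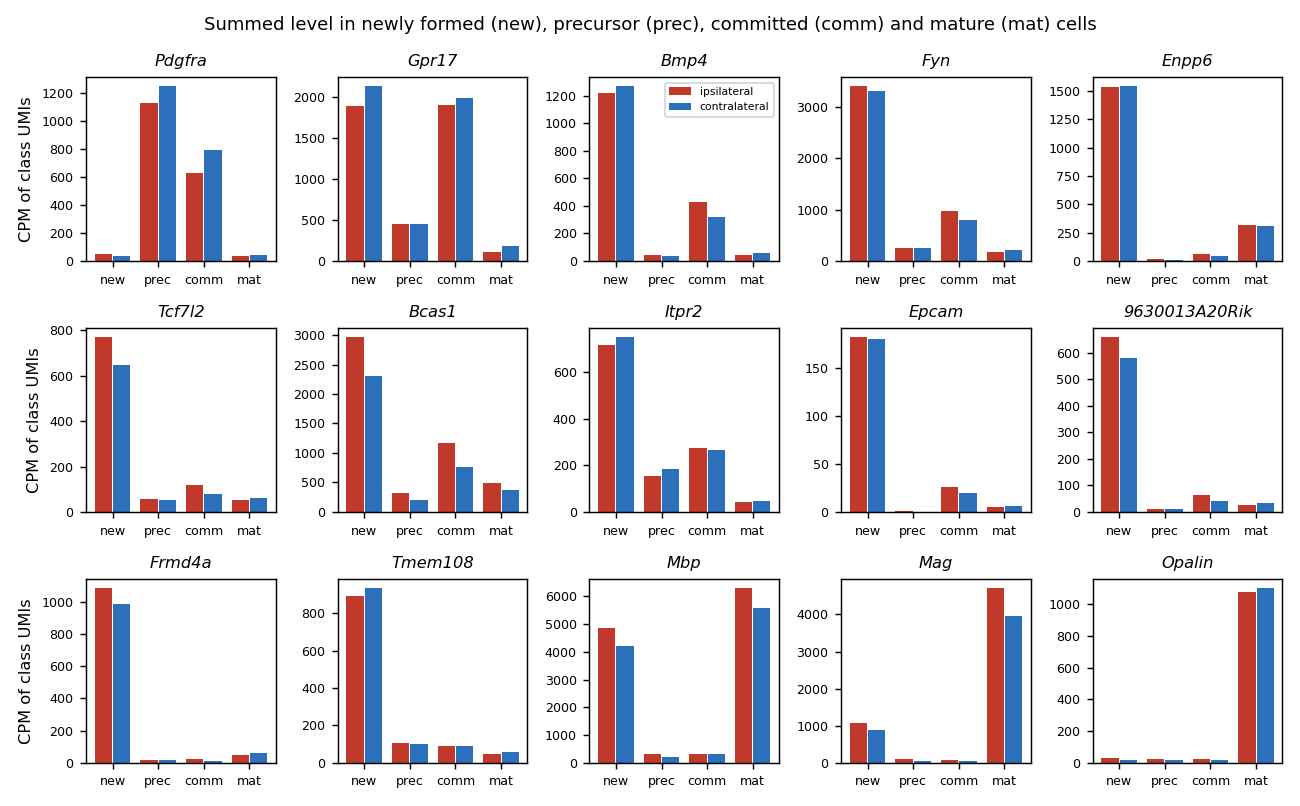
Level of 15 genes in CPM of the UMIs summed over a class, for newly formed, precursor, committed and mature cells, with the ipsilateral library in red on the left of each pair and the contralateral in blue. Frmd4a reaches 1086 and 986 CPM in newly formed cells and stays at or below 61.8 CPM elsewhere, while Gpr17 is shared with committed precursors and Mbp with mature cells.

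Genes of the neighbouring stages were only partly present. Of the precursor list, 12 of 13 measured genes were lower than in precursors, among them Pdgfra, with 51.2 ipsilateral and 39.3 contralateral CPM in newly formed cells and 1133 and 1255 CPM in precursors, which were chosen on it. Cspg4, the NG2 proteoglycan gene, chose no class and had 44.2 and 46.9 CPM in newly formed cells and 494 and 552 CPM in precursors. The exception was Tnr, which encodes the matrix protein tenascin-R and had 1615 and 1672 CPM in newly formed cells against 602 and 671 CPM in precursors. Of the same list, 9 of 13 genes were nevertheless higher than in mature cells. Of the committed list, 11 of 11 measured genes were higher than in mature cells. Gpr17 itself had 1891 and 2129 CPM in newly formed cells, close to the 1893 and 1988 CPM of committed precursors, which were chosen on it. The Gpr17 criterion of committed precursors was also met by 154 of 193 ipsilateral (79.8%) and 82 of 97 contralateral newly formed cells (84.5%). Gpr17 alone therefore does not separate newly formed cells from committed precursors. All 14 measured genes of the mature list were lower than in mature cells, such as Opalin, with 28.4 and 20.4 CPM in newly formed cells and 1080 and 1105 CPM in mature cells.

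The genes for the proteins of myelin had started unevenly. Of 12 measured, 8 were higher than in precursors and none lower, while 9 of 13 were lower than in mature cells. Mbp, which encodes myelin basic protein, was already at 4869 ipsilateral and 4209 contralateral CPM in newly formed cells, against 321 and 218 CPM in precursors and 6316 and 5587 CPM in mature cells. Mag, an adhesion protein gene of myelin, had 1084 and 872 CPM in newly formed cells, against 115 and 59.4 CPM in precursors and 4721 and 3958 CPM in mature cells. Cd9, a tetraspanin, was the 1 gene above both classes, with 5753 and 6875 CPM in newly formed cells, 1641 and 1809 CPM in precursors and 1093 and 1037 CPM in mature cells. Mobp, Mog and Mal, which the rule kept low, had 144, 138 and 123 CPM in ipsilateral and 140, 147 and 86.6 CPM in contralateral newly formed cells.

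Of 23 measured lineage transcription factors outside the rule, 8 were higher than in precursors and 6 lower, and 1 of these 6 is the further lineage marker on which precursors were chosen. Myrf, which switches on myelin genes, had 209 and 206 CPM in newly formed cells, 20.4 and 12.9 CPM in precursors and 237 and 257 CPM in mature cells. Nkx2-2, a homeodomain factor of differentiating oligodendrocytes, had 343 and 267 CPM in newly formed cells, 112 and 96.3 CPM in precursors and 40.4 and 42.9 CPM in mature cells. Nkx6-2 was still low, at 62.1 and 70.1 CPM in newly formed cells against 663 and 575 CPM in mature cells. Against mature cells, 10 of 22 factors were higher with the class totals and 6 of 21 with size factors set by the median gene, and 3 and 4 were lower. Sox4, a factor of immature cells, had 1196 and 1101 CPM in newly formed cells, 486 and 491 CPM in precursors and 112 and 99.5 CPM in mature cells.

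Some genes of process outgrowth and of contact with axons were above both precursors and mature cells, and others were below mature cells. For outgrowth and the cytoskeleton, 11 of 24 measured genes were higher than in precursors and 2 lower, and against mature cells 9 of 25 were higher and 6 lower (7 and 7 with size factors set by the median gene). Map1b, a microtubule-associated protein, had 1443 and 1378 CPM in newly formed cells, 87.5 and 81.6 CPM in precursors and 183 and 164 CPM in mature cells. Rnd2, a small GTPase, had 1018 and 1077 CPM in newly formed cells, 86.1 and 78.2 CPM in precursors and 151 and 140 CPM in mature cells. For axon contact and adhesion, 7 of 19 genes were higher than in precursors and 3 lower, and against mature cells 8 of 20 were higher and 4 lower (6 and 6 with size factors set by the median gene). The cell adhesion gene Nfasc, which encodes neurofascin, had 1528 and 1472 CPM in newly formed cells, 73.6 and 70.5 CPM in precursors and 395 and 440 CPM in mature cells.

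Among genes of cell death and survival, 2 of 13 measured were higher than in precursors, with Tfeb among them, and Bcl2 was lower. Tfeb, a lysosomal transcription factor, had 74.8 and 64.9 CPM in newly formed cells and 9.42 and 11.4 CPM in precursors. The survival gene Bcl2 had 12 ipsilateral and 7 contralateral UMIs, or 2.47 and 3.31 CPM, in newly formed cells and 42.0 and 34.3 CPM in precursors. Bcl2l1, which encodes the survival protein Bcl-xL, had 23.2 and 22.3 CPM in newly formed cells and 142 and 139 CPM in mature cells. Against mature cells, 4 of 11 measured genes were higher and 2 lower, and 2 of 11 were higher and 2 lower with size factors set by the median gene.

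Cell cycle genes were low beside precursors: 17 of 17 measured G2/M genes and 10 of 13 S phase genes were lower in newly formed cells. Mki67, the proliferation marker, had 7.40 ipsilateral and 13.3 contralateral CPM in newly formed cells and 111 and 78.2 CPM in precursors. Single barcodes carried much of what remained. In each library, the deepest newly formed cell held most: 1 barcode held 232 of 442 ipsilateral G2/M UMIs (52.5%) and 1 held 357 of 419 contralateral ones (85.2%), with 107938 and 69147 UMIs in all, and Scrublet called the contralateral one. Without these barcodes the G2/M genes summed to 44.2 ipsilateral and 30.3 contralateral CPM. Whether these barcodes were pairs of cells was not tested further.

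The genes furthest below both precursors and mature cells included Ptn, a secreted growth factor gene, and the rapidly induced genes Btg2 and Fosb. Ptn had 172 and 179 CPM in newly formed cells, 1773 and 2477 CPM in precursors and 2428 and 2501 CPM in mature cells. The transcription factor genes Creb5 and Etv1 had 14.6 and 4.26 CPM and 14.8 and 10.9 CPM in newly formed cells, and 137 to 201 CPM in precursors and mature cells. Pmp22, Adora1, Inpp5f, Masp1 and Cdc42ep1 completed the 10 lowest.

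Immediate early genes, which stimulation and also tissue dissociation are known to induce, were low as a group in newly formed cells. Of 17 measured, 15 were lower than in precursors and none higher; of 18, 15 were lower than in mature cells and 2 higher, Nr4a1 and Ier3. Fos had 923 ipsilateral and 425 contralateral CPM in newly formed cells, 4660 and 4333 CPM in precursors and 2840 and 2405 CPM in mature cells. Egr1 had 333 and 212 CPM in newly formed cells, 2047 and 1967 CPM in precursors and 734 and 692 CPM in mature cells. The difference was also seen cell by cell at 1 depth. Thinning to 11754 UMIs excluded 14 ipsilateral and 15 contralateral newly formed cells, and in the others the 20 genes had a median of 19 and 14 UMIs per newly formed cell. Precursors had 158.5 and 131, mature cells 121 and 93, and neuroblasts of the same libraries 54.5 and 43.5. The upper quartile of newly formed cells was at 39.5 UMIs in the ipsilateral and 21.75 in the contralateral library.

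**Figure D3:**
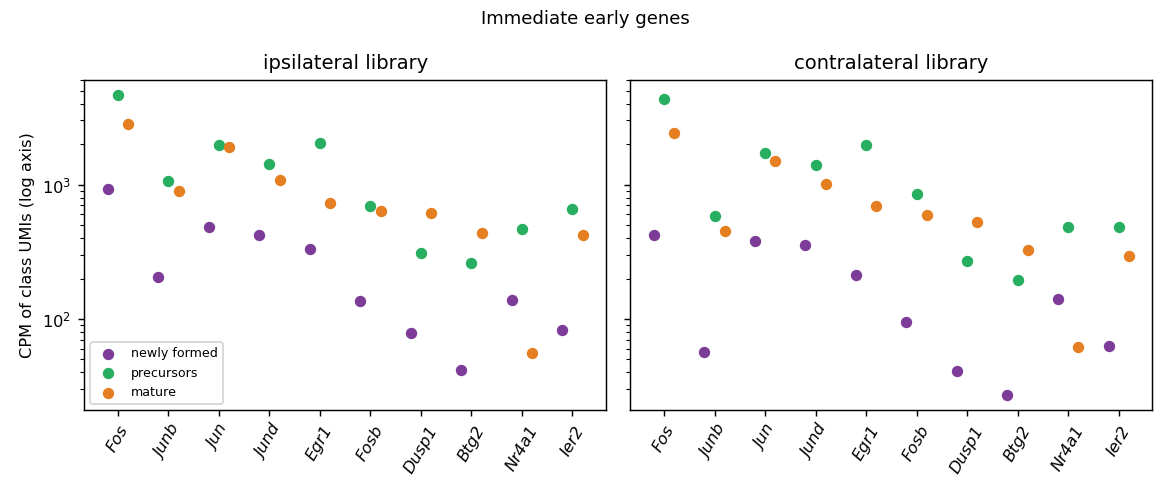
Level in CPM (log axis) of 10 of the 20 immediate early genes in newly formed cells, precursors and mature cells, ipsilateral library on the left and contralateral on the right. Fos lies at 923 and 425 CPM in newly formed cells and at 2405 CPM or more in both other classes, and Nr4a1 is the gene of these 10 with mature cells lowest.

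Newly formed cells were not uniform. Per 10000 UMIs, Enpp6 ranged from 1.78 to 49.0 (median 14.1) in the ipsilateral and from 0.581 to 43.8 (median 14.7) in the contralateral cells. Frmd4a was at 0 in 63 of 193 ipsilateral and 31 of 97 contralateral cells, while its highest cell had 64.5 and 46.6. Mbp ranged from 0 to 221 (median 24.5) and from 0 to 147 (median 30.6). Across cells of a library, Enpp6 and Frmd4a varied together, with a Spearman correlation of 0.69 in 193 ipsilateral and 0.72 in 97 contralateral cells. Gpr17 and Mbp varied in opposite directions, at -0.63 and -0.69. These correlations share each cell's depth and are given as descriptions, and Enpp6 was used by the rule.

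The cells were split at 10 of Frmd4a plus Tmem108 per 10000 UMIs, a split chosen after the values were seen. The high cells numbered 103 of 193 ipsilateral cells (53.4%, interval 46.1 to 60.6) and 56 of 97 contralateral cells (57.7%, interval 47.3 to 67.7). The difference was -4.36 percentage points, with an interval from -16.7 to 8.33. In 9 ipsilateral and 2 contralateral cells on either side the value lay within 20% of the threshold. Median depth was 24671 UMIs in high and 19904 in low ipsilateral cells, and 24555 in high and 17185 in low contralateral cells; the part of depth in what follows was not tested.

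Some myelin, outgrowth and axon contact genes were higher in the high cells. Of 6105 genes measured, 145 (2.38%) were higher and 93 (1.52%) lower in the high cells in both libraries. Mbp had 7243 CPM in the high and 1227 CPM in the low ipsilateral cells, and 5384 and 1995 CPM in the high and low contralateral cells. Nfasc had 2356 CPM in the high and 258 CPM in the low ipsilateral cells, and 2022 and 437 CPM in the high and low contralateral cells. It was 1 of 5 axon contact genes of 17 measured that were higher in both libraries, with 0 lower. As a whole that list differed little, with median log2 ratios of high over low cells of 0.12 ipsilateral and 0.07 contralateral. The outgrowth list had medians of 0.12 and 0.15. Mag and Cldn11 were higher too (4 of 14 measured myelin genes were higher, none lower), as were Map1b, Tubb4a, Tppp, Mical3, Plxnb3 and Rnd2 of 24 outgrowth genes, with Tmsb4x lower. The kinase subunit gene Pik3r3 had 353 CPM in the high and 21.9 CPM in the low ipsilateral cells, and 225 and 23.2 CPM in the high and low contralateral cells.

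Some precursor and immediate early genes were higher in the low cells. Of 13 measured precursor genes 5 were lower in the high cells, Cspg4, C1ql1, Cacng4, Pcdh15 and Nxph1. C1ql1, a secreted C1q-like protein gene, had 199 CPM in the high and 625 CPM in the low ipsilateral cells, and 187 and 693 CPM in the high and low contralateral cells. Of 13 immediate early genes, 6 were lower in the high cells and none higher. Fos had 590 CPM in the high and 1434 CPM in the low ipsilateral cells, and 240 and 772 CPM in the high and low contralateral cells. No cholesterol synthesis gene of 22 reached the threshold between high and low cells in both libraries, but most leaned higher in the high cells. Their median log2 ratio of high over low was 0.67 in ipsilateral cells, with 22 of 24 genes above 0. In contralateral cells it was 0.39, with 20 of 24 above 0.

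**Figure D4:**
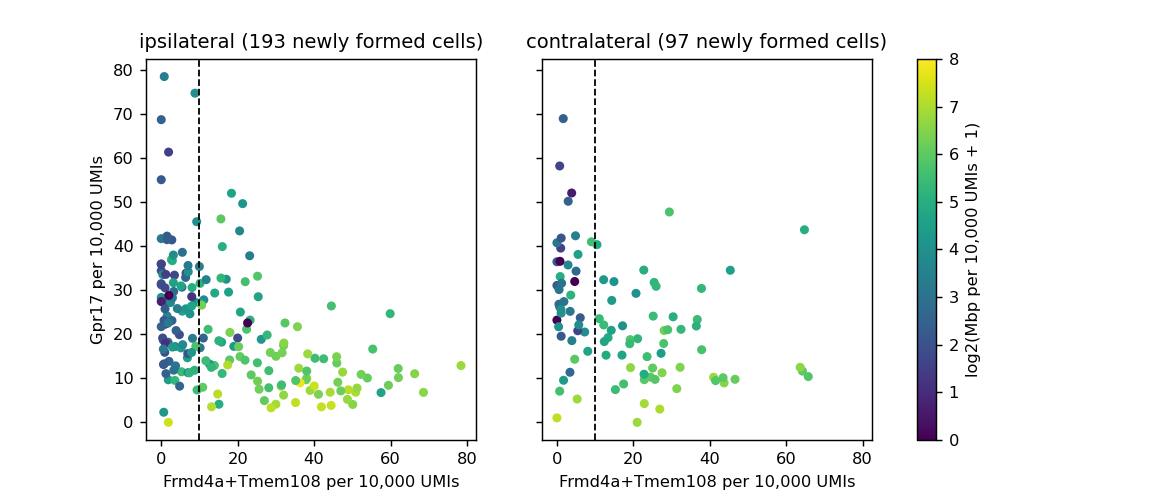
Each point is a newly formed cell, with Frmd4a plus Tmem108 per 10000 UMIs on the x axis, Gpr17 per 10000 UMIs on the y axis and colour for log2(Mbp + 1), ipsilateral library on the left and contralateral on the right. Cells right of the dashed line at 10 (103 ipsilateral, 56 contralateral) have more Mbp and mostly less Gpr17.

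Newly formed cells were a larger share of the ipsilateral library but not, beyond counting error, of its oligodendrocyte lineage. They were 193 of 2505 kept ipsilateral barcodes (7.70%, interval 6.69 to 8.82) and 97 of 1913 contralateral barcodes (5.07%, interval 4.13 to 6.15), a difference of 2.63 points (1.15 to 4.09). Among the newly formed, precursor, committed and mature cells together they were 11.4% of 1686 ipsilateral cells (9.97 to 13.1) and 9.54% of 1017 contralateral cells (7.80 to 11.5). That difference was 1.91 points, with an interval from -0.56 to 4.28. The kept barcodes also held 403 ipsilateral and 428 contralateral neuroblasts and 124 and 183 endothelial cells, which enter the first share only.

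Within newly formed cells the sides differed little: of 6907 genes measured, 19 (0.275%) were at least 1 higher on the log2 scale in the ipsilateral cells and 5 (0.0724%) at least 1 lower. Among the genes with the largest ratios were Prom1, Junb, Bst2, Rgs16, Col11a1, Socs3, Tmem2, Neat1 and Ptcra. Junb, a subunit of the AP-1 transcription factor, had 206 CPM in ipsilateral (interval 194 to 220) and 56.8 CPM in contralateral cells (47.1 to 67.9), a log2 ratio of 1.77. After thinning it was found in 65.4% of ipsilateral and 32.9% of contralateral cells (80.3% and 49.5% without thinning), and in 70.8% and 59.1% of neuroblasts, which express it too. Junb was also higher in ipsilateral precursors and mature cells, with log2 ratios of 0.88 and 0.98. Socs3, an inhibitor of cytokine signalling, had 60.6 and 18.9 CPM (log2 ratio 1.46), beside 1.91 in mature cells and 0.69 in precursors.

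Prom1 and Rgs16 had the larger ratio in the high cells. Prom1, which encodes the membrane protein CD133, had 50.0 CPM in ipsilateral (43.9 to 56.7) and 10.9 CPM in contralateral newly formed cells (6.90 to 16.3), a log2 ratio of 1.79. In the high cells it had 82.2 ipsilateral and 15.9 contralateral CPM, and in the low cells 0.521 and 1.36 CPM. Endothelial barcodes held 358 and 433 CPM of Prom1, and endothelial markers in newly formed cells summed to 75.5 and 54.9 CPM; their part in the difference was not tested. Rgs16, a regulator of G protein signalling, had 48.1 ipsilateral and 12.3 contralateral CPM (log2 ratio 1.62), with 77.8 and 15.9 CPM in the high cells and 2.61 and 5.46 CPM in the low cells. The difference between high and low cells was not tested.

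For several genes 1 cell carried much of the sum. Tmem2 had 62.9 ipsilateral and 19.9 contralateral CPM, with 30.1% of the ipsilateral UMIs in 1 barcode, and Ptcra 30.0 and 9.47 CPM, with 31.5%. Without the top barcode of each gene in each library, the log2 ratios were 1.18 for Tmem2 and 1.26 for Ptcra. Col11a1, a collagen gene, had 39.1 and 9.94 CPM with 7.37% in the top barcode, and the nuclear RNA Neat1 57.8 and 19.4 CPM. Bbc3, which encodes the death-promoting protein PUMA, had 24.3 CPM in ipsilateral (20.1 to 29.1) and 9.47 CPM in contralateral cells (5.78 to 14.6), a log2 ratio of 1.02, beside -0.23 in precursors and 0.26 in mature cells.

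The genes lowest in ipsilateral newly formed cells were Prc1, Wnt4, Matn1, Cacng7, Arhgef40, Ccnd2, Ltbp1, Chsy1, Evi2a and Nme2. Wnt4, a secreted Wnt ligand, had 22.6 CPM in ipsilateral (18.6 to 27.3) and 52.1 CPM in contralateral cells (42.8 to 62.8), a log2 ratio of -1.05. It was lower by the same ratio of -1.13 in the high and in the low cells, and at most 9.09% of its UMIs were in 1 barcode. Matn1, which encodes the matrix protein matrilin, had 28.6 ipsilateral and 63.0 contralateral CPM, a log2 ratio of -1.02. Of the others, Prc1, a mitotic spindle gene, and Ccnd2 rested on single cells: 80.0% of contralateral Prc1 UMIs and 72.3% of contralateral Ccnd2 UMIs were in 1 barcode each. The ratio of Ccnd2, a G1 cyclin gene, ranged from -1.16 to 1.44 over the settings tried. Nme2 shares 47.9% of its 31-base words with Gm20390 and is uncertain.

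Gene lists were compared between the sides over genes with at least 20 UMIs summed over both libraries. A gene low on 1 side can thus pass through the other side alone. Newly formed cells held 4864090 ipsilateral and 2112024 contralateral UMIs, so genes high on the ipsilateral side passed more readily. Among all 10925 genes with that minimum, 51.9% had a ratio above 0, 0.458% reached 1 and 0.174% reached -1, and the median was 0.01. The newly formed list had a median log2 ratio of 0.06 (14 of 19 genes above 0, 1 past 1) and the precursor list 0.09 (9 of 13 above 0). The committed list had a median of -0.04 (5 of 12 above 0) and the mature list 0.27 (12 of 16 above 0), none past 1 or -1. The lean of the mature list was not particular to newly formed cells. Its median was 0.48 in precursors (18 of 18 above 0), 0.32 in committed precursors (12 of 15) and 0.12 in mature cells (13 of 18). In newly formed cells, medians were 0.11 for the lineage transcription factors, 0.08 for the myelin genes and 0.10 for the Wnt pathway.

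Interferon response genes were higher in the ipsilateral newly formed cells, with 18 of 18 measured genes of 24 listed above 0 and 7 past 1. Several, among them Bst2, Irf7, Isg15, Oasl2 and Ifit3, passed the minimum on their ipsilateral UMIs alone. The count of genes above 0 therefore favours that side. The median log2 ratio of the 18 genes was 0.86, or 0.76 with genes at 0 in 1 library set to the limit that 3 UMIs allow. The medians in the other stages were 0.92 in precursors (21 genes), 0.51 in committed precursors (12 genes) and 0.18 in mature cells (22 genes). Each covers the genes that passed the minimum in that stage, so the gene sets differ. Bst2, which encodes the antiviral membrane protein tetherin, had 101 UMIs, or 20.8 CPM (16.9 to 25.2), in ipsilateral and 6 UMIs, or 2.84 CPM (1.04 to 6.18), in contralateral cells. Endothelial barcodes held 279 and 226 CPM of it, and what they gave to the newly formed cells was not tested. Irf7, an interferon regulatory factor, had 44 ipsilateral and 2 contralateral UMIs, a log2 ratio of 1.24 (0.67 to 1.60). Isg15, at 21 ipsilateral and 0 contralateral UMIs, was at least 3.04-fold higher against the limit of 3 UMIs per library. As 90.5% of its UMIs were in 1 barcode, that bound rests mostly on 1 cell. Oasl2, at 20 and 0 UMIs, was at least 2.89-fold higher. Ifit3 had 51 and 1 UMIs (log2 ratio interval 0.95 to 1.81), but 61.8% of its words are shared with Ifit3b.

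The interferon signal was uneven across cells. With each cell thinned to 11754 UMIs and Ifi27 left out, 39 of 179 ipsilateral newly formed cells (21.8%, interval 16 to 28.6) and 3 of 82 contralateral ones (3.66%, 0.76 to 10.3) had at least 3 UMIs of the other 23 genes. Without thinning the list had 1025 and 152 UMIs. In neuroblasts the shares were 3.90% and 4.27%, with at most 4 UMIs per cell; the highest contralateral newly formed cell had 11. The 5 highest barcodes held 37.1% of the ipsilateral and 30.9% of the contralateral unthinned UMIs, and the highest ipsilateral cell had 101 after thinning. In precursors 34.0% of ipsilateral and 22.2% of contralateral cells passed, and in mature cells 18.4% and 9.90%.

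The stretches of 250 bases upstream of the RefSeq gene starts (GRCm38.p6) were searched on both strands for the interferon-stimulated response element, searched as GAAA, any 2 bases and GAAA again, to which interferon-activated factors bind. It was in 8 of the 19 interferon genes that matched the table (42.1%) and in 3.46% of all 27025 genes. Those of Bst2 and Ifit1 are shown because both genes were past 1 in newly formed cells; capitals mark the matches, and the pair in Bst2 overlaps.
Bst2, chr8:71537473-71537722, minus strand: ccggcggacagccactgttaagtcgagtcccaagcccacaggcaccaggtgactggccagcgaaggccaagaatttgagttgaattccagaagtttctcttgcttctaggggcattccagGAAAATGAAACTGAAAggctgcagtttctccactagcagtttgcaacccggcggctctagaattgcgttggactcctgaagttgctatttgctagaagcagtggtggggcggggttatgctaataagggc
Ifit1, chr19:34640639-34640888, plus strand: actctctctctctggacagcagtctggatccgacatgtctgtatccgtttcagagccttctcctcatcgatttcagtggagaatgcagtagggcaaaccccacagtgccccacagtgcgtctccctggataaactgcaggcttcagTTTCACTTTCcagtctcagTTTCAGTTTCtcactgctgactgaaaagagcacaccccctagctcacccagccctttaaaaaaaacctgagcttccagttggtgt
Ifit1, an interferon-induced RNA-binding protein gene, had 53 UMIs (10.9 CPM) in ipsilateral and 3 UMIs (1.42 CPM) in contralateral newly formed cells, a log2 ratio of 1.31 (0.73 to 1.70), with 30.2% of the ipsilateral UMIs in 1 barcode. A match is a run of letters and not a measured binding site.

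MHC class I genes, which present peptides to T cells, leaned the same way, with a median of 0.40 and 8 of 10 genes above 0. H2-D1 had 85.5 CPM in ipsilateral (77.5 to 94.2) and 39.8 CPM in contralateral cells (31.7 to 49.2), a log2 ratio of 1.02, and B2m, the shared light chain, 52.8 and 32.2 CPM. H2-K1 went the other way, at 26.7 and 30.3 CPM, and 26.7% of the words of H2-D1 are shared with H2-K1. In mature cells the H2-D1 ratio was 2.04 and in precursors 0.16. Of the list of genes known from disease-associated oligodendrocytes, 9 of 12 were above 0, with a median of 0.40 in newly formed cells. The median in mature cells was 0.76 over the 17 genes measured there. Serpina3n, a protease inhibitor gene, had 68 ipsilateral and 0 contralateral UMIs, at least 9.84-fold higher, with 35.3% of its UMIs in 1 barcode and 21.6% of its words shared with Serpina3f. C4b, a complement gene that shares 48.3% of its words with C4a, had 52 and 3 UMIs (log2 ratio 1.29, 0.71 to 1.68).

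Immediate early genes, though low in newly formed cells, were higher on the ipsilateral side, with a median log2 ratio of 0.46 and 15 of 18 genes above 0. The median was 0.15 in precursors (20 genes), 0.22 in committed precursors (18 genes) and 0.34 in mature cells (20 genes). Fos had 923 CPM in ipsilateral (896 to 950) and 425 CPM in contralateral cells (397 to 453), a log2 ratio of 1.11. Nr4a1 did not differ in that way, at 138 ipsilateral and 142 contralateral CPM. All cells of a side went through 1 dissociation, so handling and side cannot be told apart.

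Cholesterol synthesis genes leaned toward the contralateral side: 23 of 24 were lower in ipsilateral newly formed cells, none past -1, with a median log2 ratio of -0.37. The median was 0.01 in precursors, -0.002 in committed precursors and -0.07 in mature cells. UMIs per cell, given below, leaned the same way in neuroblasts and mature cells, so the lean was not particular to newly formed cells. Hmgcs1, an early enzyme of the pathway, had 267 CPM in ipsilateral and 407 CPM in contralateral newly formed cells (log2 ratio -0.60), and Idi1, an isomerase gene, 112 and 189 CPM (-0.73). Sqle, squalene epoxidase, had 118 and 153 CPM (-0.37). Tm7sf2, a sterol reductase gene, had the lowest ratio, at 7.40 and 17.5 CPM (-0.86), and Fdps and Fdft1 were at -0.64 each. Some words are shared, 27.9% of Fdps with Gm43738 and 18.8% of Idi1 with Gm13502. The direction held among high and low cells, with medians of -0.27 in the high and -0.51 in the low cells and 22 of 24 genes below 0 in each.

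That difference lay in the cells richest in these RNAs rather than in the typical cell. At 11754 UMIs per cell the 24 genes had a median of 13 UMIs in ipsilateral and 13.5 in contralateral newly formed cells, while the upper quartiles were 24 and 36 and the means 21.5 and 29.5. At that depth neuroblasts had a median of 12 ipsilateral and 16 contralateral UMIs, with means of 16.6 and 19.0. Medians were 43 and 49 in mature cells and 17 and 18 in precursors. Of the unthinned UMIs in newly formed cells, the 5 highest barcodes held 18.4% in the ipsilateral and 27.5% in the contralateral library. In the same 250-base stretches the sterol regulatory element, searched as TCACNCCAC on both strands, was in 1 of the 17 cholesterol genes that matched the table, and in 1.225% of all genes. It is the stretch of Hmgcs1, shown with the match in capitals because this gene had the largest difference in CPM among the cholesterol genes named here.
Hmgcs1, chr13:119690101-119690350, plus strand: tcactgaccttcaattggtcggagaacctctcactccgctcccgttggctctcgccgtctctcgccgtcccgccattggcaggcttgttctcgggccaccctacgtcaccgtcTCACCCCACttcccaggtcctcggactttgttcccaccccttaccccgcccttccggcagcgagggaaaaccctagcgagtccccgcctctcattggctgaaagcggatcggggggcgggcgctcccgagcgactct

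**Figure D5:**
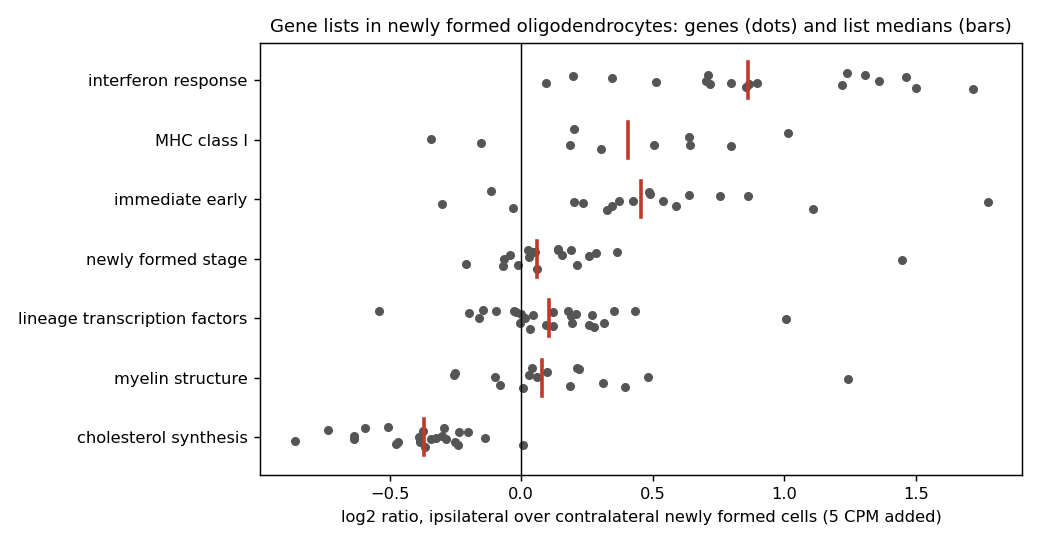
Log2 ratio of ipsilateral over contralateral newly formed cells (5 CPM added) for each gene of 7 lists with at least 20 UMIs, with list medians as bars. The interferon genes all lie above 0 (median 0.86), 23 of 24 cholesterol synthesis genes lie below 0 (median -0.37), and the newly formed genes centre near 0 (median 0.06).

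Other lists gave smaller or less stable values. S phase genes had a median of 0.05, hypoxia response genes 0.07, process outgrowth genes 0.11 and galactolipid and fatty acid synthesis genes -0.04. The S phase median ranged from -0.08 to 0.56 over the settings tried. In each library 1 barcode held much of the S phase sum, 21.5% of the ipsilateral and 26.8% of the contralateral UMIs. Ldha, a lactate dehydrogenase gene of the hypoxia list, had 251 ipsilateral and 167 contralateral CPM, and Vegfa 46.9 and 64.9 CPM. The receptor and channel list had a median of -0.09, with Kcna1, a potassium channel gene, at 46.3 and 74.8 CPM (log2 ratio -0.64). The G2/M list had a median of -0.65, but it changed sign without the contralateral barcode that held 85.2% of its UMIs. Neuroblast markers were at a median of 0.55, or 0.14 without the top barcode of each gene; their part in the other differences was not tested.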

How the data were processed

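The deposited values are UMI counts per gene and barcode of 2 droplet libraries, which the authors made, per the submitters' processing notes, with Cell Ranger 3.1.0 and build mm10. No source used here states the alignment options or the annotation. The libraries hold 54788795 ipsilateral and 36063045 contralateral UMIs over 31053 genes in 2775 and 2066 barcodes. The members, the 27 gene lists and the alternatives were chosen with earlier results of these data known.

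Cells were gated by the RNA levels given in the text. Within each library, the UMIs of a class were added up and scaled to CPM without length correction; ratios are log2 with 5 CPM added. Genes were called at a log2 ratio of 1 or -1, with at least 50 summed UMIs and 20 CPM in either group; lists used at least 20 UMIs. Intervals are exact Poisson for sums, exact Clopper-Pearson for shares and Newcombe's for differences of shares, at 95%, and they cover counting error only. A count of 0 was set to a limit of 3 UMIs per library. For per-cell comparisons each cell was thinned to 11754 UMIs, the 10th percentile of newly formed cells, and shallower cells were left out.

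Named genes were the 10 largest and 10 smallest ipsilateral over contralateral ratios in newly formed cells, and the 20 highest and 10 lowest genes against both precursors and mature cells. Up to 4 genes per list with the largest ratios, the rule's genes and stage markers were named too; other list members and genes of the split by Frmd4a and Tmem108 were picked after their values were seen. Some of these genes are not reported here. Mitochondrial, ribosomal protein, predicted and clone-named genes were left out. Scrublet (scanpy 1.11.5, expected rate 0.05, each library on all barcodes) called 11 ipsilateral (0.396%) and 14 contralateral barcodes (0.678%); calls were kept in the main values and left out in an alternative. Shared sequence is how much, in percent, of a gene's set of 31-base words recurs in transcripts of other genes (GENCODE M21). Ratio steps were tested on simulated data. Python 3.11.15 with numpy 2.4.6, scipy 1.17.1 and pandas 2.3.3 was used.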

Additional observations from a re-analysis of the deposited data

How the results depend on the processing

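No paired analysis was possible because each side is 1 library. Over the cell filters, gates and doublet removal tried, the difference in the share of newly formed cells stayed between 1.86 and 3.29 points of kept barcodes and between 1.12 and 2.70 points of the lineage. The list medians kept their sign under all 18 settings, main included, for interferon response (0.47 to 1.88), MHC class I (0.16 to 0.59), immediate early (0.28 to 0.65) and cholesterol synthesis genes (-0.55 to -0.24); the interferon median was 1.88 with 1 CPM added.

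The number of genes higher in ipsilateral newly formed cells, 19, was 30 with the gate applied after thinning to 5000 UMIs, 6 with 20 CPM added, 50 with no minimum and 46 in cells with no microglia UMI. The number lower, 5, was 3 without Scrublet calls, with the looser gate, with Mobp, Mog and Mal below 20, with the thinned gate and with the same mix of the 3 myelin bins, 1 of which rests on 1 contralateral cell. It was 10 with 1 CPM added and with the same mix of high and low Frmd4a plus Tmem108 cells, 0 with 20 CPM added, 20 with no minimum and 1 without the top barcode of each gene; the settings without top barcodes and with that mix were added after the data were seen. With size factors set by the median gene, 580 genes were higher and 1112 lower than in mature cells, and with 20 CPM added 719 were higher than in mature cells and 602 lower than in precursors. Adding fewer or more CPM moves low genes by construction; otherwise the cause was not tested.

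Mitotic genes changed sign. The G2/M median was 0.61 without Scrublet calls, 0.62 with the stricter gate, 0.50 with the thinned gate, 0.78 in cells with no microglia UMI and 0.17 without top barcodes. In the first 4 of these settings Prc1 was at 0.14, 0.12, 0.064 and 0.28, and Ube2c at 0.58, 0.62, 0.50 and 0.84, with 0.17 for Ube2c without top barcodes. Cenpf was at 0.012 without Scrublet calls, 0.12 with the stricter gate and 0.041 with no microglia UMI. The endothelial marker median was -0.046 with no minimum. Genes under 20 summed UMIs were left out of the lists, and with 1 library a side the spread between animals is unknown.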
